A study of Mus musculus with 20 samples.

Results

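The 5 genes described here are the neurotrophin system of the mouse brain as these data measured it: the ligand genes Bdnf and Ntf3, and the receptor genes Ntrk2, Ntrk3 and Ngfr. They were chosen by name, as neurotrophins and their receptors, and all 5 were found among the 19463 genes of the table. RNA was measured in the whole brains of 20 male mice on the C57BL/6J strain, in 4 groups of 5: Katnal2-KO and wild-type (WT) mice at 3 weeks of age (P21) and at 10 weeks (P70). The KO allele came from the EUCOMM tm1a allele of Katnal2, which encodes a relative of the catalytic subunit of the microtubule-severing enzyme katanin. Crosses with Protamine-Flp mice, which express the recombinase in the male germ line, gave a floxed allele, and embryos were then exposed to the cell-permeable Cre recombinase HTNC, so that the deletion was not limited to a tissue or cell type. WT mice carried no targeted allele, and no animal received a drug or other treatment. Different mice were used at each age, 1 library was made per mouse, and the sources used here do not say which mice were littermates.

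Neurotrophins are secreted growth factors that keep neurons alive, guide the growth of their processes and adjust their synapses. BDNF binds the tyrosine kinase receptor TrkB, the product of Ntrk2, and NT-3, the product of Ntf3, binds TrkC, the product of Ntrk3. Both ligands, and above all their uncleaved precursors, also bind p75NTR, the product of Ngfr, which is found in basal forebrain cholinergic neurons, in glia of peripheral nerve and in other cells. In the adult forebrain BDNF is made largely by excitatory neurons and its gene is switched on by synaptic activity, while TrkB is made by neurons and, in a truncated form without a kinase, by astrocytes.

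A few facts on the libraries bear on what follows. Approximate depth ran from 26000000 to 36000000 reads at P21 and from 23000000 to 27000000 at P70. The values are normalized counts, that is, estimated reads per gene scaled for depth and GC bias. The KO and WT mice numbered 5 at P70 stood apart from the rest of their groups: over all genes their log2 values deviated from the group mean by a root mean square of 0.532 and 0.438, against 0.235 to 0.339 in the other 18 mice, so results that rest on them are given with and without them. As a check of the labels, the targeted gene Katnal2 lay between 78.1 and 96.0 normalized counts in the P21 KO mice and between 99.3 and 115 in the P21 WT mice. At P70 the ranges overlapped, at 95.1 to 125 in KO and 101 to 141 in WT mice. Only a part of the gene was deleted and the value counts reads from all of its exons, so this level is a weak check of the genotype. The tissue is labelled as whole brain, and the summed level of 8 markers of all neurons lay between 159761 and 177981 normalized counts in all 20 mice.

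Set side by side per kilobase of exon, the transcripts of the Trk receptor genes were more abundant than those of the ligand genes in each mouse, while Ngfr lay below Bdnf. The mean level over the 20 mice was 902 ± 87.7 normalized counts per kilobase for Ntrk2 (SD, n = 20), 220 ± 21.1 for Ntrk3, 99.0 ± 17.9 for Bdnf, 44.0 ± 8.62 for Ngfr and 31.0 ± 6.44 for Ntf3. The ranges over mice of Ntrk2 (653 to 1013), Ntrk3 (177 to 249) and Bdnf (78.5 to 135) did not overlap each other, nor did that of Bdnf overlap that of Ngfr (31.1 to 63.2). Ngfr and Ntf3 (17.2 to 41.0) were the only neighbours in the order whose ranges overlapped. Ngfr stood above Ntf3 in 18 mice and below it in 2, and with the length of the principal transcript in place of all exons it stood above in 15 and below in 5. The level of Ntrk2 per kilobase was 3.66 to 4.69 times that of Ntrk3 in each mouse.

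**Figure D1:**
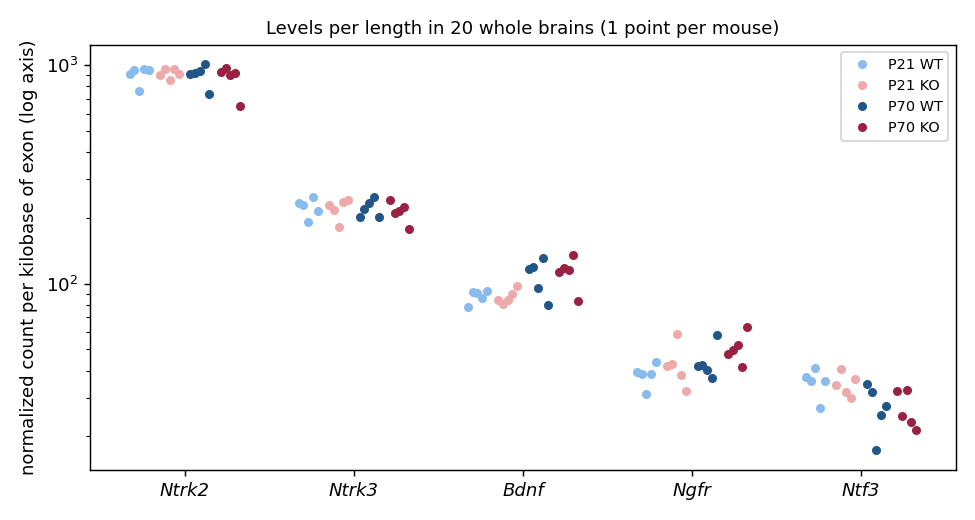
Level of each gene in each of the 20 mice, in normalized counts per kilobase of exon on a log axis, with 1 point per mouse coloured by group. Ntrk2 lies between 653 and 1013 and Ntf3 between 17.2 and 41.0, and the only neighbours whose clouds overlap are Ngfr and Ntf3.

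These levels depend on the gene models. In the GRCm38 assembly with the GENCODE M21 annotation, Bdnf (ENSMUSG00000048482) covers chr2:109674700-109727007 on the plus strand and has 11 transcripts, all coding, whose exons together span 6217 bases. Ntf3 (ENSMUSG00000049107) covers chr6:126101412-126166910 on the minus strand, with 3 transcripts and 1714 exon bases. Ntrk2 (ENSMUSG00000055254) covers chr13:58806569-59133970 on the plus strand, with 10 transcripts of which 7 are coding, and their coding sequences run from 1398 to 2463 bases. Ntrk3 (ENSMUSG00000059146) covers chr7:78175959-78738012 on the minus strand, with 20 transcripts of which 6 are coding. Ngfr (ENSMUSG00000000120) covers chr11:95568818-95587735 on the minus strand with a single transcript of 3446 bases. Each value is a sum over all isoforms of its gene, so full-length and truncated receptors, and transcripts from the several Bdnf promoters, were not separated. Of the 5 genes, only Bdnf shares exon sequence with another annotated gene: 896 of its exon bases, or 14.4%, are overlapped on the opposite strand by Gm45346, and because the kit does not mark strand, reads there cannot be told apart.

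The study's main comparison, KO against WT at each age, asks what the loss of Katnal2 changed in the brain transcriptome. None of the 5 neurotrophin genes was found to differ between genotypes at either age. In the limma fit across all genes, 0 of 5 passed an adjusted p of 0.05 at P21 and 0 of 5 at P70, beside 0% of 17610 genes tested at P21 and 0% of 17613 at P70. The 0% describes this fit only. The authors, who used DESeq2 and a fold-change cutoff, reported small sets of differing genes at both ages. At an unadjusted p under 0.05, limma passed 0 of the 5 at each age, beside 2.44% of all genes at P21 and 1.13% at P70. The genotype groups of each gene overlapped at both ages.

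Among the ligands, Bdnf read 488, 570, 565, 534 and 573 normalized counts in the P21 WT mice and 524, 501, 523, 555 and 605 in the P21 KO mice. At P70 it read 725, 741, 594, 813 and 494 in WT and 700, 733, 714, 839 and 519 in KO mice. In both genotypes the lowest P70 value belonged to the mouse numbered 5, and the KO and WT ranges overlapped over most of their length at both ages. The KO minus WT difference was -0.01 ± 0.07 (log2, SE; 95% interval -0.16 to 0.14; n = 5 against 5; limma adjusted p = 1.00) at P21 and 0.06 ± 0.15 (-0.27 to 0.40; limma adjusted p = 1.00) at P70. Those intervals run from 0.895 to 1.099-fold at P21 and from 0.826 to 1.32-fold at P70.

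Ntf3, the gene of NT-3, was the lowest of the 5. It read 64.0, 61.2, 70.2, 46.2 and 61.2 normalized counts in P21 WT and 59.0, 70.01, 54.8, 51.3 and 62.4 in P21 KO mice. At P70 it read 59.2, 54.6, 29.6, 42.7 and 47.0 in WT and 55.1, 42.3, 56.0, 40.0 and 36.6 in KO mice. The genotypes overlapped over most of their ranges, and counting error alone, approximated from the value of 1 read, gives an SD of 7.15 to 7.43 normalized counts, where the SD between mice was 7.23 to 8.95 in 3 groups and 11.5 in P70 WT mice. The KO minus WT difference was -0.02 ± 0.14 (log2, SE; 95% interval -0.32 to 0.28) at P21 and -0.00 ± 0.21 (-0.46 to 0.46) at P70, both with a limma adjusted p of 1.00.

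Ntrk2, the gene of the BDNF receptor TrkB, was the highest of the 5 and among the steadiest. It read 17666, 18374, 14770, 18593 and 18408 normalized counts in P21 WT and 17347, 18477, 16530, 18534 and 17657 in P21 KO mice. At P70 it read 17495, 17764, 18204, 19545 and 14247 in WT and 17915, 18795, 17386, 17747 and 12601 in KO mice. Apart from P21 WT mouse 3 and the 2 P70 mice numbered 5, every mouse lay between 16530 and 19545. The KO minus WT difference was 0.02 ± 0.06 (log2, SE; 95% interval -0.12 to 0.15; limma adjusted p = 1.00) at P21 and -0.05 ± 0.12 (-0.31 to 0.20; limma adjusted p = 1.00) at P70. Without the mice numbered 5 the P70 difference was -0.02 ± 0.04 (-0.12 to 0.07; limma adjusted p = 0.999), an interval of 0.921 to 1.05-fold.

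Ntrk3, the gene of the NT-3 receptor TrkC, read 7088, 6881, 5763, 7507 and 6503 normalized counts in P21 WT and 6916, 6569, 5507, 7149 and 7307 in P21 KO mice. At P70 it read 6073, 6659, 7027, 7523 and 6083 in WT and 7319, 6328, 6479, 6737 and 5352 in KO mice. No group stood apart in these values. The KO minus WT difference was -0.01 ± 0.08 (log2, SE; 95% interval -0.19 to 0.16) at P21 and -0.05 ± 0.09 (-0.26 to 0.15) at P70, with a limma adjusted p of 1.00 at both ages.

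Ngfr, the gene of p75NTR, had the widest genotype differences of the 5, and these did not pass the test. At P21 the difference rested on KO mouse 3, without which it was 0.02 ± 0.12 (log2, SE; limma adjusted p = 1.00). It read 136, 133, 107, 133 and 150 normalized counts in P21 WT and 144, 148, 203, 131 and 111 in P21 KO mice. At P70 it read 145, 147, 138, 128 and 201 in WT and 164, 172, 181, 143 and 218 in KO mice. The 4 other P70 WT mice lay between 128 and 147, and 3 of the 4 other P70 KO mice lay above all of them, while the WT mouse numbered 5 lay above those 4 KO mice. The KO minus WT difference was 0.14 ± 0.15 (log2, SE; 95% interval -0.17 to 0.46; limma adjusted p = 1.00) at P21 and 0.21 ± 0.15 (-0.11 to 0.53; limma adjusted p = 1.00) at P70. Without the mice numbered 5 the P70 difference was 0.24 ± 0.11 (-0.01 to 0.48), with an unadjusted limma p of 0.0554 and an adjusted p of 0.999. The exact two-sided permutation test over all 252 relabellings of the 10 mice of an age gave p = 0.183 for Ngfr at P70. For the other 9 tests of a gene at an age the exact p lay between 0.437 and 0.984, and the smallest adjusted value over the 10 tests was 0.961, where a p of 0.00794 was the smallest these relabellings can give. At P70 the summed level of 6 cholinergic neuron markers overlapped between genotypes, at 603 to 662 normalized counts in KO and 521 to 647 in WT mice. The 2 mice numbered 5, which had the highest Ngfr values of their groups, also had the highest summed level of 8 markers of meningeal and perivascular fibroblasts, at 6429 in WT against 4750 to 5478 in the other 4 and at 5828 in KO against 4956 to 5744. Their summed level of 3 markers of olfactory ensheathing and Schwann cells was the lowest of their groups, at 395 in WT against 399.9 to 519 and at 326 in KO against 362 to 435. Fibroblasts were not alone in this. The choroid plexus, ependymal, oligodendrocyte precursor and inhibitory neuron sums were also the highest of their groups in both mice. Those of all neurons, cerebellar granule neurons, astrocytes, and immature neurons and dividing cells were the lowest in both. The part of any of these cell types in the Ngfr values was not tested.

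**Figure D2:**
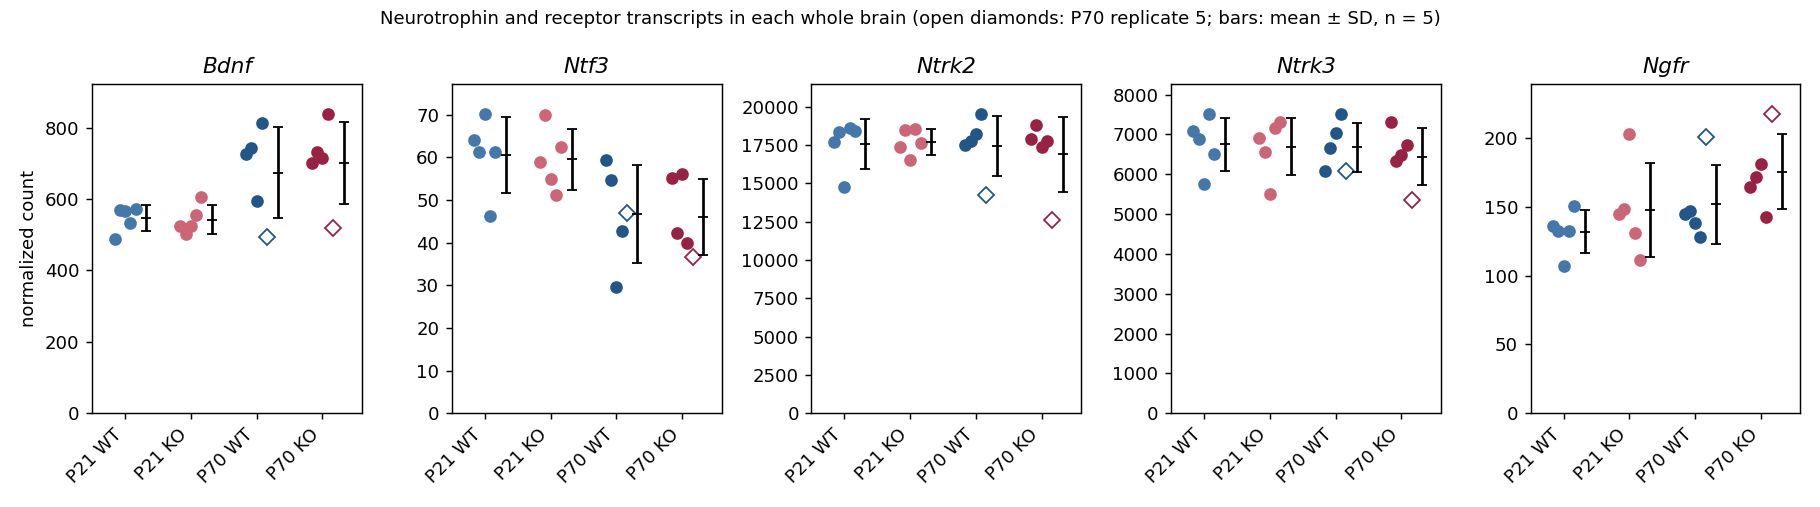
Normalized counts of each gene in each mouse, with 1 panel per gene, 1 point per mouse (open diamonds for the P70 mice numbered 5) and a bar for the group mean ± SD (n = 5 per group). The KO and WT points of each age overlap for all 5 genes, and the P70 Bdnf points lie above the P21 points of their genotype except for the 2 mice numbered 5, at 494 and 519.

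The second axis of the design is age, with P70 set against P21 within each genotype. Bdnf was higher at P70 in 4 of 5 mice of each genotype than in any P21 mouse of that genotype. The share of all genes that did so was not counted. The mean of Bdnf was 546 ± 35.9 normalized counts at P21 and 674 ± 128 at P70 in WT (SD, n = 5), and 542 ± 40.2 and 701 ± 116 in KO mice, a difference that did not pass the adjusted test. Ntf3 was lower on average, at 46.6 ± 11.5 against 60.6 ± 8.85 in WT and 46.0 ± 8.95 against 59.5 ± 7.23 in KO mice, with overlapping groups, and it did not pass either. In limma, 0 of the 5 genes passed an adjusted p of 0.05 in WT, beside 11.1% of 17637 genes, and 0 of 5 in KO, beside 11.9% (6.4% fell). At an unadjusted p under 0.05, 2 of 5 passed in each genotype, Bdnf and Ntf3 both times, beside 24.4% of all genes in WT and 24.8% in KO. These age contrasts use the same mice as the genotype contrasts. Age cannot be told apart from any difference in the handling of the libraries at each age, since the labels give no batch and depth differed between the ages.

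The P70 minus P21 difference of Bdnf was 0.28 ± 0.12 in WT (log2, SE; 95% interval 0.03 to 0.54; limma adjusted p = 0.155) and 0.36 ± 0.12 in KO mice (0.10 to 0.61; limma adjusted p = 0.0651). The call depended on the 2 mice that stood apart. Without them Bdnf rose, by 0.39 ± 0.08 in WT (0.21 to 0.56; 1.31-fold; limma adjusted p = 0.00243) and by 0.46 ± 0.08 in KO mice (0.29 to 0.64; 1.38-fold; limma adjusted p = 0.000501). Its P70 values then lay above all P21 values of the same genotype. This follows from the choice of mice, since those left out were the only P70 mice that did not. Bdnf was then the only one of the 5 to pass, in each genotype, beside 21.1% of all genes in WT and 22% in KO, so that passing was common. With the WT mouse numbered 5 alone left out, the limma adjusted p was 0.0281 in WT and 0.0267 in KO, and with the KO mouse numbered 5 alone left out it was 0.0707 in WT and 0.00701 in KO.

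The difference of Ntf3 had the opposite sign, at -0.39 ± 0.18 in WT (log2, SE; 95% interval -0.76 to -0.03; limma adjusted p = 0.168) and -0.38 ± 0.18 in KO mice (-0.75 to -0.01; limma adjusted p = 0.190). It did not pass without the mice numbered 5 either, at -0.41 ± 0.19 in WT (limma adjusted p = 0.132) and -0.30 ± 0.19 in KO mice (limma adjusted p = 0.271). The ratio of Bdnf to Ntf3, both per kilobase of exon, was 2.53 ± 0.42 in P21 WT, 2.54 ± 0.37 in P21 KO, 4.16 ± 1.17 in P70 WT and 4.30 ± 0.98 in P70 KO mice (SD, n = 5), which describes the same values and was not tested.

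For the 2 Trk genes no difference between P21 and P70 was found. The difference of Ntrk2 was -0.01 ± 0.10 in WT (log2, SE; 95% interval -0.22 to 0.19; limma adjusted p = 0.963) and -0.08 ± 0.10 in KO mice (-0.28 to 0.12; limma adjusted p = 0.673). That of Ntrk3 was -0.02 ± 0.09 in WT (-0.21 to 0.18; limma adjusted p = 0.946) and -0.05 ± 0.09 in KO mice (-0.25 to 0.14; limma adjusted p = 0.774). These intervals run from 0.821 to 1.14-fold across both genes and genotypes. Ngfr was between the ligands and the Trk genes in size of difference, at 0.19 ± 0.15 in WT (-0.12 to 0.51; limma adjusted p = 0.474) and 0.26 ± 0.15 in KO mice (-0.05 to 0.58; limma adjusted p = 0.293). Without the mice numbered 5 it was 0.09 ± 0.14 in WT (limma adjusted p = 0.702) and 0.18 ± 0.14 in KO mice (limma adjusted p = 0.368).

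**Figure D3:**
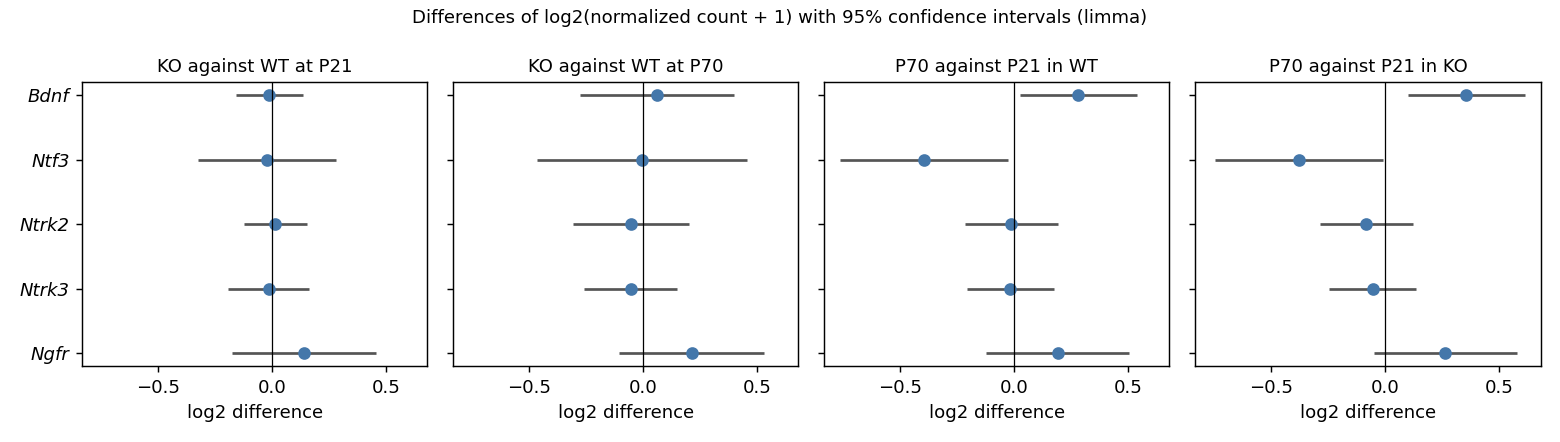
Log2 differences of the 5 genes in the limma fits, with 95% intervals, for KO minus WT at P21 and P70 and for P70 minus P21 in WT and KO mice. The genotype intervals all include 0, whereas those of Bdnf and Ntf3 from P21 to P70 do not in either genotype, with limma adjusted p-values of 0.0651 to 0.190.

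The age by genotype interaction, which tests whether KO minus WT differed between P70 and P21, passed for 0 of the 5 genes, beside 0% of 17637 genes by the adjusted p and 1.68% by an unadjusted p under 0.05. The interaction was 0.07 ± 0.17 for Bdnf (log2, SE; 95% interval -0.29 to 0.44), 0.02 ± 0.25 for Ntf3, -0.07 ± 0.14 for Ntrk2, -0.04 ± 0.13 for Ntrk3 and 0.07 ± 0.21 for Ngfr, with a limma adjusted p of 1.00 each. No difference between the genotypes in the age course of these genes was therefore detected.

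Other cells moved with age in the same libraries. Of 10 oligodendrocyte markers, 8 fell from P21 to P70 in WT and 9 in KO mice (limma, adjusted p under 0.05). Over all genes, 5.62% fell in WT and 6.4% in KO. The summed level of these markers went from between 396421 and 581254 to between 152854 and 200810 normalized counts. All 5 blood markers tested fell in both genotypes, beside the same shares of all genes. Of 10 astrocyte markers, 0 passed in WT and 1 fell in KO mice, and of 8 markers of all neurons 1 rose and 1 fell in each genotype. In either direction, 11.1% of all genes passed in WT and 11.9% in KO. In the P70 mice numbered 5, astrocyte markers summed to 115749 in WT, below the 119487 to 129586 of the other 4, and to 105678 in KO, below 120775 to 135823, while choroid plexus markers summed to 27320 in WT, above 12461 to 21646, and to 27327 in KO, above 15366 to 26254. Markers of all neurons were also lowest in these mice, at 161710 in WT against 170739 to 177981 and at 167719 in KO against 168012 to 176435. Inhibitory neuron markers were instead highest, at 31780 in WT against 28992.5 to 30397 and at 31615 in KO against 29959 to 30381.5. Excitatory neuron markers lay within the other 4 in WT and below them in KO, at 87708 against 88331 to 93832. The low Ntrk2 values of those mice lie beside the lower astrocyte and all-neuron sums, while the neuron lists did not move together. Each sum is weighted to the most abundant markers of its list. Among astrocyte markers in P70 KO mice, Slc1a2 had a mean of 56359 normalized counts and Aldh1l1 of 1877. Single markers were not compared in the mice numbered 5, so a lower sum need not hold for every marker. The part of cell makeup in any of these values was not tested, and in a bulk sample fewer cells of a type and less RNA per cell cannot be told apart.

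The genes around the 5 were taken from lists written for the neurotrophin pathway. By genotype, 0 genes of any list passed at either age in limma, beside 0% of all genes. At an unadjusted limma p under 0.05, 2.44% of all genes passed at P21 and 1.13% at P70. Of the listed genes 1 did so at P21, Ptpn11, and 0 at P70. Those with the smallest p at P21 included Mmp9, a proneurotrophin-cleaving protease (-0.33 log2), Ptpn11, a phosphatase of the Trk signal (0.11), Traf6, a p75NTR adaptor (0.14), Crtc1, a CREB coactivator (0.07), and Vgf, a secreted product induced by neurotrophins (0.07), each with an adjusted p of 1.00 in limma. At P70 they included the convertase gene Pcsk7 (-0.16 log2), the adaptor gene Grb2 (-0.11), Zfp369, which encodes a p75NTR-interacting zinc finger protein (-0.09), Srf (0.16) and Npas4 (0.14), with an adjusted p of 1.00 each in limma.

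Among the other receptors of the system, Sorcs1, a sortilin-family receptor, fell with age in KO mice by 0.27 ± 0.09 on the log2 scale (limma adjusted p = 0.0492), beside 6.4% of all genes that fell. In WT mice its difference was -0.20 ± 0.09 (limma adjusted p = 0.157), beside 5.62%, and its level lay between 998 and 1297 normalized counts at P70 and between 1152 and 1510 at P21. The interaction for Sorcs1 had a limma adjusted p of 1.00, so the genotypes were not shown to differ in it.

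Among genes whose products cleave proneurotrophins, 1 rose and 2 fell of 10 tested in each genotype (limma), beside 5.53% of all genes that rose and 5.62% that fell in WT and 5.47% and 6.4% in KO. Plat, which encodes tissue plasminogen activator, an enzyme at the head of extracellular proBDNF cleavage, went from 1776 ± 178 to 1109 ± 60.3 normalized counts in WT (SD, n = 5) and from 1701 ± 180 to 1039 ± 89.8 in KO mice. No P70 value reached a P21 value in either genotype, and the share of all genes separated in this way was not counted. The log2 change of Plat was -0.67 ± 0.08 in WT and -0.71 ± 0.08 in KO mice, which passed in limma. Of the convertase genes, Pcsk5 fell by 0.44 ± 0.11 in WT and 0.38 ± 0.11 in KO mice and Pcsk6 rose by 0.42 ± 0.07 and 0.28 ± 0.07 on the log2 scale.

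Of 37 adaptors and effectors of Trk signalling, 3 rose and 1 fell in WT and 2 rose and 1 fell in KO mice (limma). Beside these, 11.1% of all genes passed in either direction in WT and 11.9% in KO, so with all mice the list did not pass more often than all genes. Rps6ka2, an ERK-activated kinase, rose by 0.34 ± 0.06 and 0.35 ± 0.06 on the log2 scale in WT and KO, Sh2b3, an adaptor, by 0.35 ± 0.09 and 0.32 ± 0.09, and Nras, a Ras GTPase, fell by 0.43 ± 0.12 and 0.38 ± 0.12. Without the mice numbered 5, 12 of the 37 rose in WT and 8 in KO, beside 11.2% and 10.9% of all genes. The share that rose was then above that of all genes, so the likeness to all genes held only with those mice in the fit. Of 13 genes for p75NTR adaptors and co-receptors only Zfp369 passed, at 0.31 ± 0.07 in WT and 0.26 ± 0.07 in KO mice (limma adjusted p = 0.00510 and 0.0182). Beside it, 5.53% of all genes rose in WT and 5.47% in KO mice.

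Activity-induced genes had the largest share of genes that passed among the 6 lists. Of 18, 11 rose in WT and 12 in KO mice and 0 fell (limma), beside the 5.53% of all genes that rose in WT and 5.47% in KO. The median log2 difference of the 18 was 0.75 in WT and 0.98 in KO mice, against 0.00 and -0.01 over all genes tested. Their summed level lay between 20871 and 33876 normalized counts at P21 and between 40021 and 54173 at P70, with no overlap, over both genotypes. How often the sum of such a list separates in this way was not counted. Without the mice numbered 5, 13 rose in WT and 14 in KO mice, beside 11.2% and 10.9% of all genes. Bdnf is itself an activity-induced gene, and its difference was smaller than the list's median in both genotypes.

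Fosb, an immediate early transcription factor of the Fos family, went from 148 ± 40.2 to 725 ± 254 normalized counts in WT and from 135 ± 16.3 to 734 ± 257 in KO mice (SD, n = 5), with no overlap. The share of all genes without overlap between the ages was not counted. Egr3, a zinc finger transcription factor, rose by 1.25 ± 0.23 in WT and 1.47 ± 0.23 in KO mice on the log2 scale. Arc, a synaptic immediate early gene, rose by 1.26 ± 0.23 and 1.29 ± 0.23, and Vgf by 0.62 ± 0.11 and 0.57 ± 0.11. All of these passed an adjusted p of 0.05 in limma in both genotypes.

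Of 15 genes for transcription factors and regulators of Bdnf, 3 rose in WT and 4 in KO mice and 0 fell (limma), beside 5.53% of all genes that rose in WT and 5.47% in KO. Npas4 is also counted among the activity-induced genes. Npas4, a neuronal activity-dependent factor known to act at Bdnf promoters, went from 367 ± 122 to 611 ± 85.2 normalized counts in WT and from 325 ± 73.8 to 667 ± 34.6 in KO mice (SD, n = 5). Crebbp, the CREB-binding protein gene, rose by 0.47 ± 0.08 in WT and 0.43 ± 0.08 in KO mice on the log2 scale, and Crtc1 by 0.28 ± 0.06 and 0.21 ± 0.06 (limma adjusted p = 0.00559 and 0.0362). Srf passed in KO mice alone, at 0.32 ± 0.10 (limma adjusted p = 0.0330), against 0.23 ± 0.10 in WT (limma adjusted p = 0.139), and the difference between them had a limma adjusted p of 1.00.

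**Figure D4:**
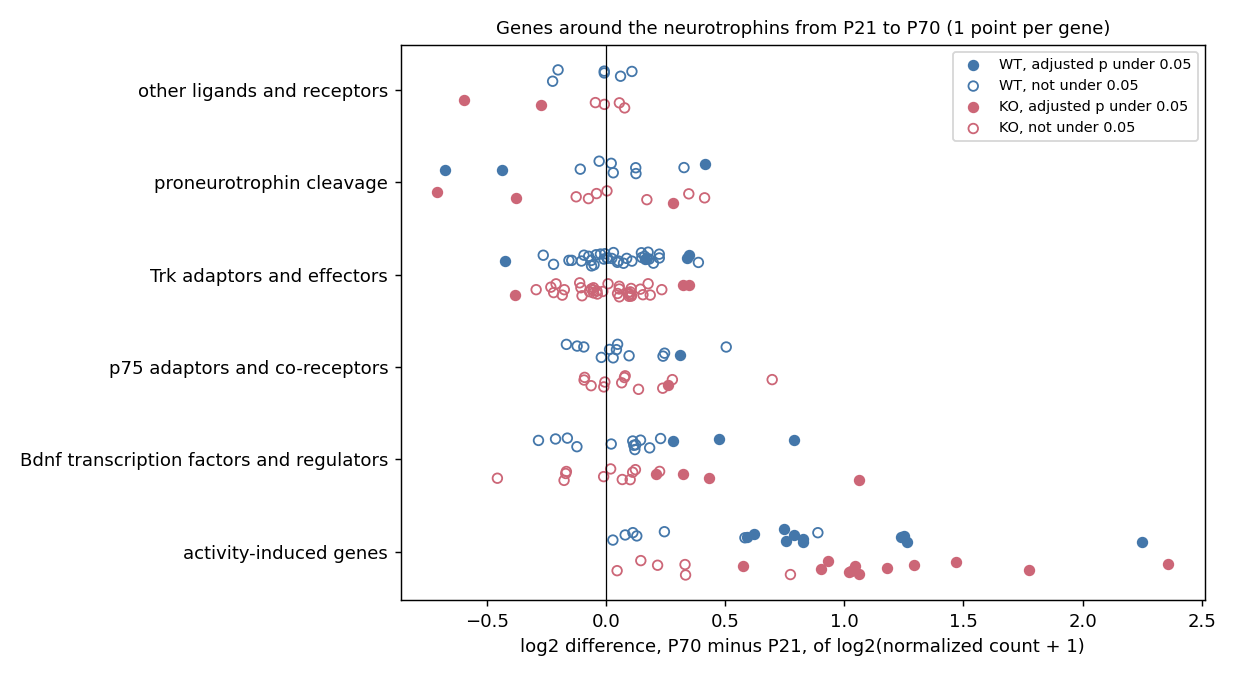
P70 minus P21 difference on the log2 scale for every gene of the 6 pathway lists, with 1 point per gene, WT in blue and KO in red, filled where the limma adjusted p was under 0.05. The activity-induced genes lie to the right of 0 in both genotypes, up to Fosb at 2.25 in WT and 2.36 in KO, while the other lists spread around 0.

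Because Bdnf is an activity-regulated gene, and the activity-induced genes rose with age, the sequence before 1 of its alternative starts is shown. RefSeq promoter windows of 300 bases (GRCm38.p6; 250 before a start and 50 after it) were held for 4 of the 5 genes: 7 windows for Bdnf, 2 for Ntf3, 1 for Ntrk2 and 1 for Ngfr. They were searched on both strands for the short form of the cyclic AMP response element, TGACG or CGTCA, to which CREB binds, and for the whole element TGACGTCA, which contains the short form on both strands. The motif was chosen after the sequence was seen. Of the 11 windows, 1 held the short form, in Bdnf, beside 20.8% of 32851 windows, and none held the whole element, beside 1.79%. The window of Bdnf is given from chr2:109692186-109692435 on the plus strand, the 250 bases before the start, with the short form in capitals, which begins 35 bases before the start; it is written 5′ to 3′.
Bdnf: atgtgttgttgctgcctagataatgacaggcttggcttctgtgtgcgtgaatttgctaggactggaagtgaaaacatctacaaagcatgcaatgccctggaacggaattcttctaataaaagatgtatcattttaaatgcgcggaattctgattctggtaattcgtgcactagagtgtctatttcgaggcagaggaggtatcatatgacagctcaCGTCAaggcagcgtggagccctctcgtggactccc

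Of the 18 activity-induced genes, 12 had a window, and 11 of these held the short form, or 91.7%, against 23% of 27025 genes. Since the motif was chosen after the sequence was seen, this share is a description. Its link to the rise of these genes or of Bdnf with age was not tested. For comparison with Bdnf, 30 bases around such a site are shown for Fosb and Npas4, which rose with age, with every short form again in capitals. The site of Fosb begins 60 bases before its start, in the window chr7:19309996-19310295 on the minus strand, and of the 2 shown for Npas4 the nearer begins 169 bases before its start, in the window chr19:4989922-4990221 on the minus strand. A match describes the letters only, and the data do not say which Bdnf start was used.
Fosb: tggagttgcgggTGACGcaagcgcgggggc
Npas4: gaCGTCAcgggaTGACGtcggaagtctggg

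The genes whose course over the 20 mice was most like each of the 5 were found by the root mean square difference of log2 values, each gene centred on its own mean, among 17637 genes. The nearest to Bdnf were Jade3 (0.0957), Zbtb11 (0.0983) and Enc1 (0.103), where Bdnf itself varied by 0.245 around its mean. The nearest to Ntrk2 included Prickle2 (0.0524) and Paqr9 (0.0535), and those nearest to Ntrk3 were Mccc1 (0.0582), Kalrn (0.0583) and Astn1 (0.0610). The ligand Ntf3 and the receptor Ngfr had no gene as close: the nearest to Ntf3 were Nxpe4 (0.198), Ly86 (0.202) and Msmo1 (0.205), and those nearest to Ngfr included Itgb5 (0.156) and Htra3 (0.157). Ntf3 and Ngfr also have the lowest counts of the 5. Counting error alone, as approximated above, gives an SD of 7.15 to 7.43 normalized counts on a mean of 53.2 for Ntf3. For Ngfr it gives 10.5 to 14.1 on a mean of 152, and the part of counting error in these distances was not tested. The genes named as nearest share libraries and depth with the 5, and the likeness is a description.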

How the data were processed

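RNA from the whole brains of 20 male mice was sequenced from poly-A libraries (TruSeq v2, paired-end). The authors made the deposited signal values, which are normalized counts, by quantifying GRCm38 transcripts in Salmon, corrected for GC bias, and passing the estimates through tximport to DESeq2 for normalization. The submitters' processing notes name Salmon 1.1.0, DESeq2 1.26.0 and R 3.6.2. Whole reads could not be recovered, so no count test was run, and depth is an approximation from the spacing of low values. Of 19463 gene IDs, 19447 matched a symbol in GENCODE M21.

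Differences were tested with limma 3.58.1 in R 4.3.3 (intensity trend) on log2(value + 1), which understates changes of low genes, where genes averaged 10 or more, with Benjamini-Hochberg correction over all genes (threshold 0.05). KO against WT was fitted within each age, and age contrasts and the interaction on all 20 mice. Single genes also had an exact two-sided permutation test. The fits were tested on simulated data. Python used pandas 2.3.3 and numpy 2.4.6.

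Groups came from the sample labels. The p-values measure the spread between mice. Named genes were the 5 members, Katnal2, up to 4 genes per pathway list that passed in both genotypes in the same direction, the gene of each list with the smallest genotype p at each age, the 3 genes most like each member, and markers that moved beside a member. Sorcs1 and the age values of Srf were named after they were seen. Some genes that this rule names are not reported here. The members, lists and tests were chosen with earlier results of these data known.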

Additional observations from a re-analysis of the deposited data

Results flagged for a closer look

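In 24 groups of 5 mice (the 5 genes and Katnal2 in 4 groups each), 3 values lay far from the other 4, by a gap to the nearest of them that exceeded 0.71 of the whole range. Chance flags about 1 in 20 such groups. Ntrk2 read 14770 normalized counts in P21 WT mouse 3, against 17666 to 18593 in the others, a gap of 0.757 of the range. It read 12601 in P70 KO mouse 5, against 17386 to 18795, a gap of 0.773. Ngfr read 201 in P70 WT mouse 5, against 128 to 147, a gap of 0.743. Of these values, 2 come from the mice numbered 5 at P70, which stood apart over all genes.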

How the results depend on the processing

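Of the alternatives that kept all mice, only those that changed the weight of the P70 mice numbered 5 changed a call, and Bdnf with age was the gene concerned. With limma array weights, Bdnf rose with age by 0.41 in WT (log2; limma adjusted p = 0.00172) and 0.46 in KO mice (limma adjusted p = 0.000272), Ntrk2 was at 0.020 in WT, and 3855 genes passed in WT (2011 higher, 1844 lower) and 4439 in KO mice (2181 higher, 2258 lower). For KO against WT with these weights, 1 gene passed at P21 (1 lower), and the log2 differences of Bdnf, Ntf3 and Ntrk2 at P21 were 0.0095, 0.033 and -0.0088 and that of Ntf3 at P70 was 0.073, all not passing. With both mice numbered 5 at P70 left out, 3731 genes passed with age in WT (1971 higher, 1760 lower) and 3879 in KO mice (1921 higher, 1958 lower), Bdnf was at 0.39 and 0.46, Ntrk2 at 0.059 and 0.021, and Ntrk3 at 0.017 and 0.011. At P70, 1 gene then passed between genotypes (1 higher), and Ntf3 was at 0.086. Rescaled to the same sum, Ntf3 at P70 was at 0.00094. With principal transcript lengths the levels per kilobase were 144 for Bdnf, 1990 for Ntrk2 and 337 for Ntrk3. Other pseudocounts, filters, scalings and fits kept the call of all 5 genes in every contrast.

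With each mouse left out in turn, KO minus WT at P21 lay between -0.052 and 0.015 for Bdnf, -0.11 and 0.036 for Ntf3, -0.045 and 0.040 for Ntrk2, -0.070 and 0.054 for Ntrk3 and 0.020 and 0.23 for Ngfr, and 0 to 1 genes passed (0 to 1 lower). At P70 it lay between -0.044 and 0.17 for Bdnf, -0.15 and 0.092 for Ntf3, -0.12 and 0.049 for Ntrk2, -0.10 and 0.012 for Ntrk3 and 0.13 and 0.32 for Ngfr. Ngfr reached the smallest exact permutation p without P70 WT mouse 5, at 0.0317 (0.32, unadjusted over the 10 tests). With age the range was 0.21 to 0.39 in WT and 0.29 to 0.46 in KO mice for Bdnf, -0.073 to 0.059 and -0.12 to 0.021 for Ntrk2, and -0.071 to 0.024 and -0.12 to 0.011 for Ntrk3, and 632 to 1178 genes were higher in KO mice. The interaction lay between -0.032 and 0.18 for Bdnf, -0.13 and 0.11 for Ntf3, -0.14 and 0.033 for Ntrk2, -0.11 and 0.026 for Ntrk3 and -0.021 and 0.19 for Ngfr.

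Same-numbered KO and WT mice are different animals whose deviations correlated between -0.0091 and 0.260 at P21 and between 0.0749 and 0.705 at P70. The correlation was over 0.1 in 2 of 5 pairs at P21 and 4 of 5 at P70, and 5 of 10 mice at P21 and 7 of 10 at P70 correlated best with their own number, a hint from the data and not from the design. Since not every pair passed 0.1 and no label ties the numbers to a litter or day, they were not treated as pairs. With the replicate block, Bdnf with age had a limma adjusted p of 0.128 in WT (0.28) and 0.0532 in KO mice (0.36), and no call of the 5 genes changed. Ngfr at P70 was higher in the KO mouse for 5 of 5 numbers, and with the block its difference was 0.21 ± 0.10 (log2, SE; limma adjusted p = 1.00). With age, 2290 genes passed in WT and 2411 in KO mice with the block, and 0 passed between genotypes at either age (732 at P21 and 610 at P70 by an unadjusted limma p under 0.05). DESeq2 was not run, since no counts were available for it here.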
